A study of Mus musculus with 12 samples.

Results

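The integrin and laminin genes code for receptors and ligands of cell adhesion: integrins are cell-surface receptors built of 1 alpha and 1 beta chain, and laminins are the large alpha, beta and gamma chain trimers that many of them bind. The 35 genes described here, 25 integrin chains and 10 laminin chains, were all genes analysed here whose symbol is that of an integrin alpha or beta chain or of a laminin chain, out of 18194 genes measured. Integrin-binding proteins were left out. Each gene was read by its brightest probe set, a group of short probes for 1 transcript, and 21 of the 35 genes had further probe sets. Itga11 and Itgad were not analysed here.

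The arrays read RNA of granule cell progenitors, the dividing neuronal precursors in the outer layer of the cerebellum, of mice at postnatal day 8. The 4 groups were SmoM2 progenitors of the hemispheres (the lateral cerebellum), wild type progenitors of the hemispheres, SmoM2 progenitors of the vermis (the midline) and wild type progenitors of the vermis, with 3 arrays each and 5 mice pooled per array. The SmoM2 mice were Atoh1-CreER/+; R26LSL-SmoM2-YFP, so that a Cre recombinase driven by the granule cell gene Atoh1 and activated by tamoxifen (200 µg per g at postnatal day 2) switched on an active form of the hedgehog transducer Smoothened. The allele was thereby switched on in cells that used Atoh1 when tamoxifen acted, and in their descendants. All 4 groups were on a mixed background with C57BL/6 and Swiss Webster, and cells were isolated over Percoll, which enriches progenitors without a marker-based sort. The wild type group has no allele listed, and whether it received tamoxifen or carried Cre was not given in the sources used here. The series asks how strongly lateral progenitors respond to high sonic hedgehog signalling.

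Laminins polymerise into basement membranes, and the outer layer of the cerebellum, where granule cell progenitors divide, lies directly under the basement membrane of the pia. Integrins anchor cells to it and signal through talin, kindlin and focal adhesion kinase to the cytoskeleton. In mouse granule cell progenitors, laminin is known to strengthen the proliferative response to sonic hedgehog, and loss of beta1 integrin is known to reduce it.

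Values below are deposited log2 expression levels, on which a difference of 1 is a doubling, and "rose", "fell" or "passed" means an adjusted p under 0.05 in limma's moderated test with Benjamini-Hochberg adjustment over all 18194 genes. The hedgehog readouts followed the labels, as Gli1 was higher in SmoM2 by a log2 difference of 1.68 (hemisphere) and 1.5 (vermis), and Ptch1 by 1.69 and 1.83. Smo itself was higher by 0.46 in SmoM2 hemispheres (adjusted p = 0.00852) and by 0.28 in SmoM2 vermis (adjusted p = 0.0741), and whether its probes read the transgene was not given in the sources used here. Atoh1, which marks the progenitors, averaged 8.98 in SmoM2 and 8.16 in wild type hemispheres, and 8.71 in SmoM2 and 7.85 in wild type vermis. It was the single gene of a list of 8 granule cell markers to rise. Neurod1, Pax6 and Cntn2 fell in both regions and Barhl1 fell in the hemisphere. All 8 lay above the lower quartile of kept probe sets in every group. Arrays of a group correlated at 0.989 to 0.997. The wild type hemisphere arrays stood apart in their labelling controls: the spiked-in dap transcript read 8.06 to 9.77 there, against 10.03 to 11.22 on the other arrays, and the 3' minus 5' difference of Actb was 0.46 to 0.79, against 0.88 to 1.10. Wild type hemisphere replicate 3 was the lowest of them in both. The hemisphere counts of passing genes in each list are therefore also given without it. So are the hemisphere differences of the named integrin, laminin and partner genes that passed. Nothing in the labels says that the pools were prepared independently, so the p-values measure the spread between these pools.

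Integrin and laminin genes differed between SmoM2 and wild type progenitors in both directions. In the hemisphere 11 of the 35 passed, 7 higher and 4 lower in SmoM2, where 14.8% of all genes passed (7.62% higher, 7.18% lower). In the vermis 12 of the 35 passed, 6 higher and 6 lower, where 17% of all genes passed (7.56% higher, 9.46% lower). The median log2 difference over the 35 was -0.0022 in the hemisphere and -0.13 in the vermis, against -0.053 and -0.059 over all genes. The SmoM2 and wild type arrays did not overlap for 19 of the 35 genes in the hemisphere, where 31.7% of all genes did not overlap, and for 18 in the vermis, where the share was 39.8%.

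The laminins that passed mostly rose and the integrins split. Of 10 laminin genes, 5 were higher and 0 lower in SmoM2 hemispheres, and 3 higher and 1 lower in SmoM2 vermis. Their median log2 differences were 0.31 (hemisphere) and 0.17 (vermis). Of 25 integrin genes, 2 were higher and 4 lower in SmoM2 hemispheres, and 3 higher and 5 lower in SmoM2 vermis, with medians of -0.083 and -0.22. In both regions 8 of the 35 passed, where 9.97% of all genes did so: Lama1, Lama2, Lama5, Itga8 and Itga9 rose, and Itga7, Itgb2 and Itgb4 fell. In at least 1 region 15 of the 35 passed, where the share of all genes was 21.9%. The plot of differences with standard errors shows all 35 genes in each region.

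**Figure D1:**
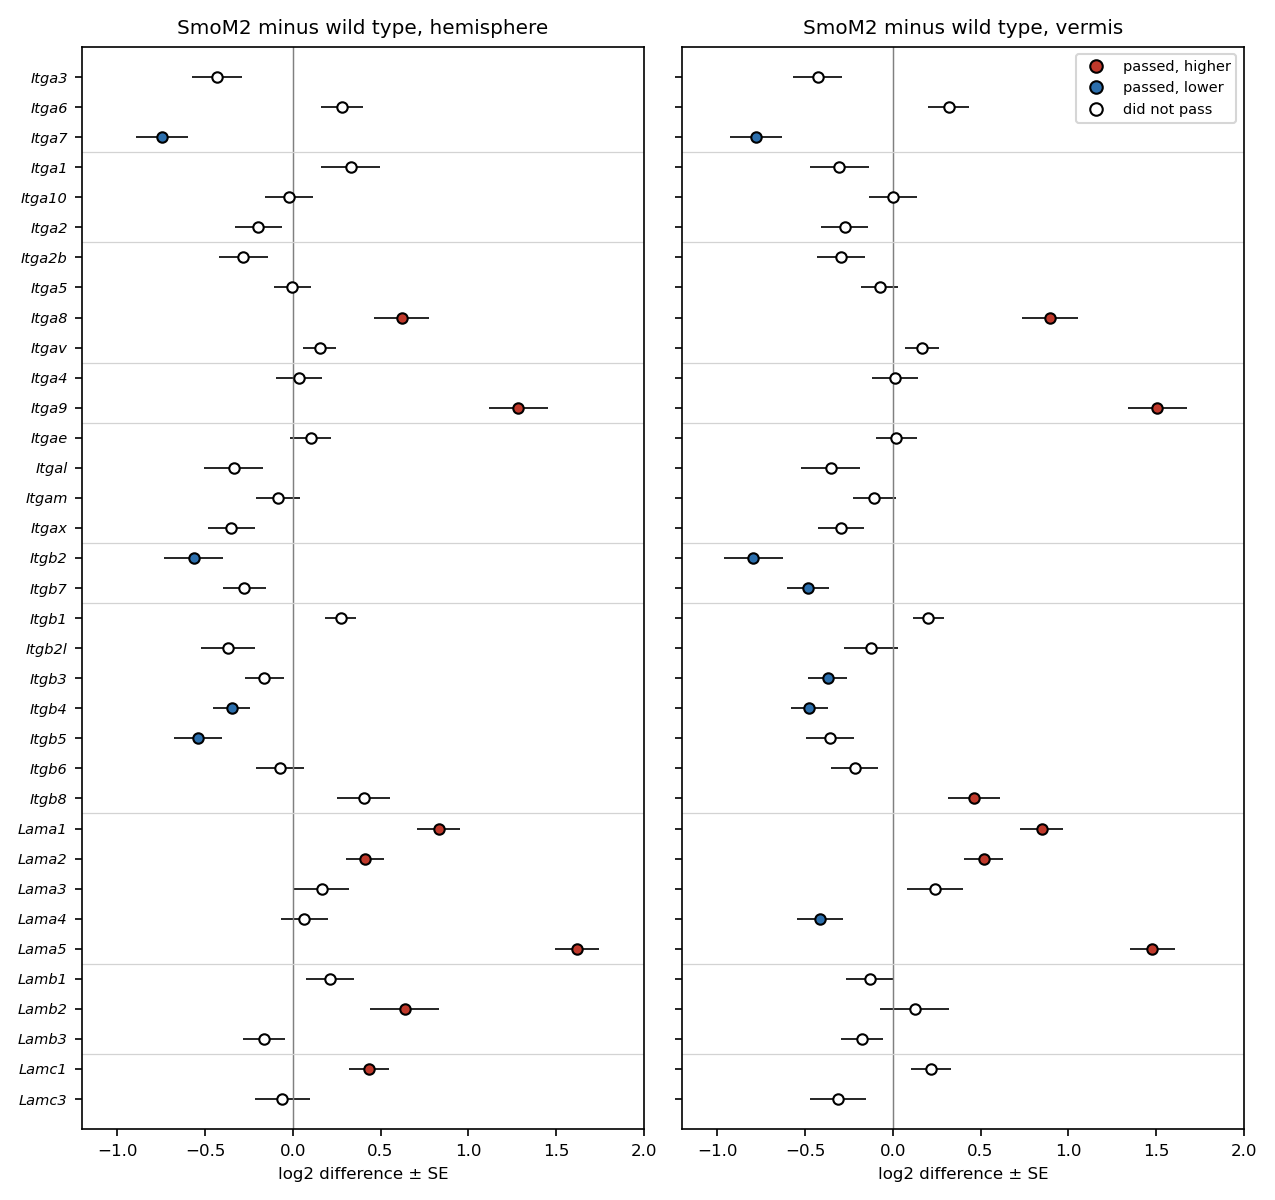
Log2 difference of SmoM2 minus wild type (x axis) with its standard error for each of the 35 genes (rows, grouped by role), in the hemisphere on the left and the vermis on the right; filled points passed an adjusted p of 0.05. Lama5 lies farthest to the right in the hemisphere (1.62) and Itga9 in the vermis (1.51), while Itga7 and Itgb2 lie to the left in both.

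Without wild type hemisphere replicate 3, 6 genes passed in the hemisphere, 5 higher (Itga9, Lama1, Lama5, Lamb2, Lamc1) and 1 lower (Itga7), where 11.5% of all genes passed. Of these, 2 were integrins. Their log2 differences were then 1.33 for Itga9, 0.88 for Lama1, 1.69 for Lama5, 0.77 for Lamb2, 0.56 for Lamc1 and -0.59 for Itga7. The 5 genes that no longer passed are Itga8, Itgb2, Itgb4, Itgb5 and Lama2, with differences of 0.52, -0.51, -0.35, -0.46 and 0.40. The hemisphere count was also 6 without wild type hemisphere replicate 2 (9.9% of all genes passed) or SmoM2 hemisphere replicate 2 (11.2%). It was 4 without SmoM2 hemisphere replicate 3 (9.37%), with 2 laminins in each of these 3 fits. Without wild type hemisphere replicate 1 it was 15, 10 of them integrins, where 23.5% of all genes passed. In the vermis, 5 integrins passed without wild type vermis replicate 3, where 10.6% of all genes passed. Lama1, Lama5, Itga7 and Itga9 passed in both regions whichever array was left out. These are RNA levels of a cell preparation, in which fewer cells of a type and less RNA per cell cannot be told apart.

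Among the laminin alpha chains, which carry the integrin-binding end of the trimer, Lama5 changed most. Its log2 levels were 7.53, 7.46 and 7.37 in SmoM2 hemispheres, against 5.65, 5.89 and 5.97 in wild type hemispheres. In the vermis they were 7.31, 7.44 and 7.16 in SmoM2, against 5.78, 6.06 and 5.64 in wild type. Every SmoM2 array lay above every wild type array by more than 1 log2 unit. The difference was 1.62 ± 0.13 in the hemisphere (SE, 3.07-fold, adjusted p = 1.06e-06) and 1.48 ± 0.13 in the vermis (2.79-fold, adjusted p = 2.66e-06). Lama5 is the widely used alpha chain of mature basement membranes.

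Lama1, the alpha chain of early embryonic and pial basement membranes, had log2 levels of 5.79, 6.08 and 6.11 in SmoM2 hemispheres, against 5.05, 5.17 and 5.26 in wild type hemispheres. In the vermis it had 5.97, 6.23 and 6.17 in SmoM2, against 5.10, 5.42 and 5.29 in wild type. The groups did not overlap in either region. The difference was 0.83 ± 0.12 in the hemisphere (SE, adjusted p = 0.000386) and 0.85 ± 0.12 in the vermis (adjusted p = 0.000292).

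Lama2, the alpha chain of muscle and of some brain basement membranes, rose less. Its log2 levels were 7.36, 7.65 and 7.68 in SmoM2 hemispheres, against 7.20, 7.13 and 7.11 in wild type hemispheres. The vermis arrays read 7.51, 7.58 and 7.62 in SmoM2, against 7.07, 7.17 and 6.91 in wild type. The groups did not overlap, with SmoM2 hemisphere replicate 1 nearest to the wild type arrays. The difference was 0.41 ± 0.11 (SE, adjusted p = 0.0209) in the hemisphere and 0.52 ± 0.11 (adjusted p = 0.00548) in the vermis. The hemisphere call was lost without wild type hemisphere replicate 2 or 3 (adjusted p = 0.0602 and 0.0541) or SmoM2 hemisphere replicate 2 or 3 (0.0745 and 0.0936).

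Lama4, an alpha chain typical of blood vessel walls, passed in the vermis alone, where it averaged 5.89 ± 0.08 in SmoM2 and 6.30 ± 0.15 in wild type (SD, n = 3 each; log2 difference -0.41, adjusted p = 0.0467). In the hemisphere it averaged 6.20 ± 0.17 in SmoM2 and 6.14 ± 0.24 in wild type. The vermis call held in 5 of 12 fits that left out 1 array, and its adjusted p was 0.0613 with the pools as a random block. Of 9 endothelial markers, 4 also fell in the vermis (9.46% of all genes fell there) and 0 passed in the hemisphere (14.8% of all genes passed there). Their summed linear levels were 654 to 994 in SmoM2 and 1356 to 1616 in wild type vermis, and 1049 to 1222 in SmoM2 and 936 to 1708 in wild type hemispheres. The vermis count of endothelial markers was 1 without wild type vermis replicate 2 (10.3% of all genes passed) or 3 (10.6%) or SmoM2 vermis replicate 1 (9.87%). It was 2 without SmoM2 vermis replicate 2 (9.65%) or any SmoM2 hemisphere array (14.5% to 15.8%). The hemisphere count was 1 without wild type hemisphere replicate 3 (11.5%). The part of vessel cells in the Lama4 result was not tested. Lama3, an alpha chain of epithelial laminin, passed in neither region, and its mean lay below the lower quartile of kept probe sets.

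The beta and gamma chains complete the trimer. Lamb2 had log2 levels of 5.45, 5.70 and 5.71 in SmoM2 hemispheres, against 5.33, 4.36 and 5.25 in wild type hemispheres. In the vermis the levels were 5.43, 5.32 and 5.15 in SmoM2, against 5.22, 5.17 and 5.14 in wild type. Wild type hemisphere replicate 2 stood well below every other array. The hemisphere difference of 0.64 ± 0.20 (SE, adjusted p = 0.0433) became 0.33 (adjusted p = 0.11) without that array, and the call held in 2 of 12 fits that left out 1 array. With the pools as a random block its adjusted p was 0.0548.

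Lamc1, the gamma chain of most laminins, averaged 7.34 ± 0.06 in SmoM2 and 6.90 ± 0.23 in wild type hemispheres (SD, n = 3 each; log2 difference 0.43, adjusted p = 0.0198), and 7.17 ± 0.09 in SmoM2 and 6.95 ± 0.0047 in wild type vermis (log2 difference 0.22, adjusted p = 0.195). The hemisphere call was lost without wild type hemisphere replicate 2 (adjusted p = 0.0829) or SmoM2 hemisphere replicate 2 or 3 (0.0564 and 0.0732). Lamb1, the common beta chain, averaged 8.54 ± 0.24 in SmoM2 and 8.33 ± 0.18 in wild type hemispheres, and 8.29 ± 0.10 in SmoM2 and 8.41 ± 0.15 in wild type vermis, and its arrays overlapped in both regions. Lamb3 and Lamc3 passed in neither region, with log2 differences between -0.31 and -0.06.

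**Figure D2:**
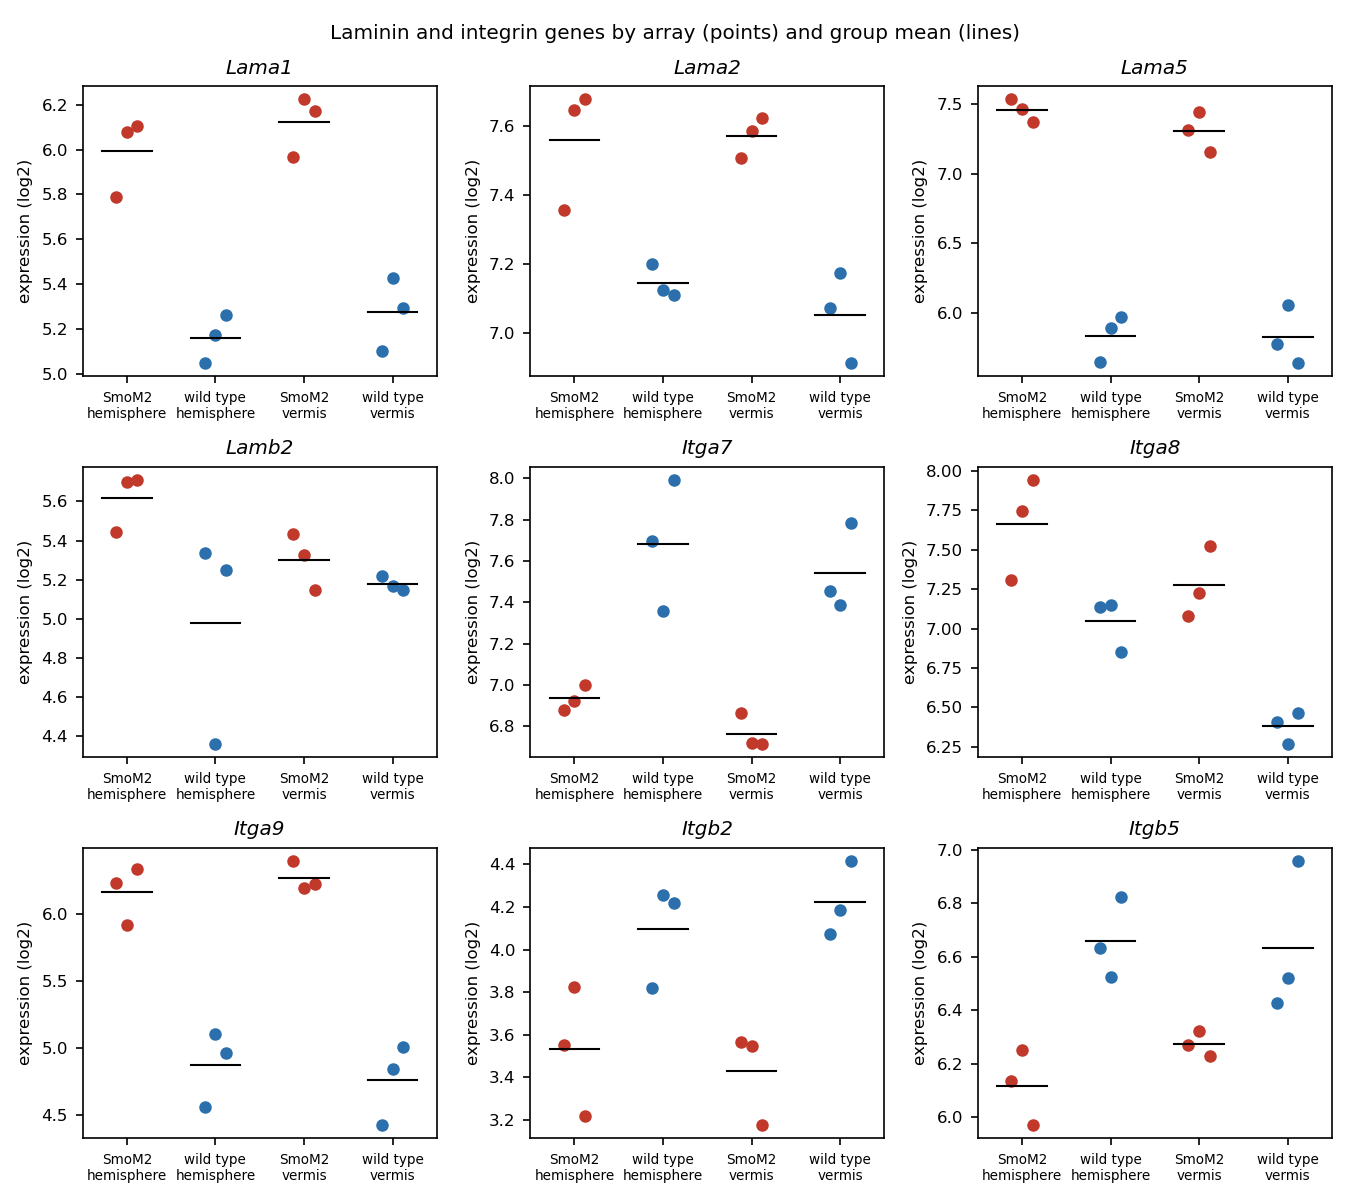
Log2 expression (y axis, a separate range in each panel) on every array (points) with the group mean (line), for the 9 genes that passed with a difference of at least 0.5 either way; SmoM2 is red and wild type blue, hemisphere left of vermis. Lama5, Lama1 and Itga9 show SmoM2 arrays wholly above wild type arrays, and in Lamb2 a single wild type hemisphere array at 4.36 sets the group mean.

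Among the integrin alpha chains, those that rose were Itga9 and Itga8. Itga9 pairs with beta1 and binds tenascin-C, osteopontin and VCAM-1. Its log2 levels were 6.23, 5.92 and 6.34 in SmoM2 hemispheres, against 4.56, 5.11 and 4.96 in wild type hemispheres. The vermis levels were 6.39, 6.19 and 6.23 in SmoM2, against 4.43, 4.85 and 5.01 in wild type. The lowest SmoM2 array lay clearly above the highest wild type array in each region. The difference was 1.29 ± 0.17 in the hemisphere (SE, 2.44-fold, adjusted p = 0.00014) and 1.51 ± 0.17 in the vermis (2.85-fold, adjusted p = 3.16e-05). Itga4, the chain related to it, averaged 6.12 ± 0.22 in SmoM2 and 6.08 ± 0.19 in wild type hemispheres, and 5.74 ± 0.06 in SmoM2 and 5.73 ± 0.15 in wild type vermis, and passed in neither region.

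Itga8 pairs with beta1 and binds ligands with an RGD motif, among them nephronectin. Its log2 levels were 7.31, 7.75 and 7.94 in SmoM2 hemispheres, against 7.14, 7.15 and 6.85 in wild type hemispheres. In the vermis they were 7.08, 7.22 and 7.53 in SmoM2, against 6.41, 6.27 and 6.46 in wild type. The groups did not overlap within a region, and SmoM2 vermis overlapped wild type hemisphere. The difference was 0.62 ± 0.16 in the hemisphere (SE, adjusted p = 0.018) and 0.90 ± 0.16 in the vermis (adjusted p = 0.00158). The hemisphere call was lost without wild type hemisphere replicate 3 (adjusted p = 0.0715) or SmoM2 hemisphere replicate 2 or 3 (0.0621 and 0.0889).

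The other RGD-binding alpha chains passed in neither region. Itgav, which partners several beta chains, averaged 10.30 and 10.14 in SmoM2 and wild type hemispheres and 10.30 and 10.13 in SmoM2 and wild type vermis. Itga5, the fibronectin receptor chain, and Itga2b, the platelet chain, had log2 differences between -0.30 and -0.0022. The collagen-binding chains Itga1, Itga2 and Itga10 passed in neither region, with log2 differences between -0.30 and 0.33.

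The laminin-binding alpha chains, which all pair with beta1, took different courses. Itga7, best known from muscle, fell: its log2 levels were 6.88, 6.92 and 7.0 in SmoM2 hemispheres, against 7.70, 7.36 and 7.99 in wild type hemispheres. The vermis levels were 6.86, 6.72 and 6.71 in SmoM2, against 7.46, 7.39 and 7.79 in wild type. All SmoM2 arrays lay below all wild type arrays. The difference was -0.75 ± 0.15 in the hemisphere (SE, adjusted p = 0.00354) and -0.78 ± 0.15 in the vermis (adjusted p = 0.00259).

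Itga3 also averaged lower, at 5.49 ± 0.08 in SmoM2 and 5.92 ± 0.20 in wild type hemispheres and 5.48 ± 0.17 in SmoM2 and 5.91 ± 0.25 in wild type vermis (SD, n = 3 each), and missed the threshold in both (limma adjusted p = 0.053 and 0.0505). Itga6, which can pair with beta1 or beta4, had log2 differences of 0.28 ± 0.12 in the hemisphere (SE, adjusted p = 0.123) and 0.32 ± 0.12 in the vermis (adjusted p = 0.0772). By the brightest probe sets, 1 of the 3 laminin-binding alpha chains fell and 0 rose in each region, while 3 of 5 laminin alpha chains rose. Of all genes 14.8% passed in the hemisphere and 17% in the vermis. In the vermis the second Itga6 probe set rose by 0.48 (limma adjusted p = 0.0162 over 34958 probe sets). Of the other Itga3 probe sets 1 fell there by 0.52 (0.0237), and the third did not pass (0.123). With probe sets averaged, Itga6 rose and Itga3 fell in the vermis (limma adjusted p = 0.0162 and 0.0131).

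Of the beta chains, Itgb1, the partner of most laminin and collagen receptors, passed in neither region. It averaged 8.89 ± 0.04 in SmoM2 and 8.61 ± 0.07 in wild type hemispheres (SD, n = 3 each; adjusted p = 0.0526), and 8.83 ± 0.05 in SmoM2 and 8.63 ± 0.04 in wild type vermis (adjusted p = 0.129). Its SmoM2 arrays lay above its wild type arrays in both regions, by log2 differences of 0.27 and 0.20.

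Itgb5, a partner of the alphav chain in vitronectin receptors, fell in the hemisphere. Its log2 levels were 6.14, 6.25 and 5.97 in SmoM2 hemispheres, against 6.63, 6.53 and 6.82 in wild type hemispheres. The vermis levels were 6.27, 6.32 and 6.23 in SmoM2, against 6.43, 6.52 and 6.96 in wild type. The groups did not overlap in either region. The difference was -0.54 ± 0.14 in the hemisphere (SE, adjusted p = 0.0161) and -0.36 ± 0.14 in the vermis (adjusted p = 0.0836). The hemisphere call was lost without wild type hemisphere replicate 3 (adjusted p = 0.0628) or SmoM2 hemisphere replicate 3 (0.0754).

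Itgb4, the hemidesmosome chain that pairs with alpha6, fell in both regions, by 0.35 ± 0.11 on the log2 scale in the hemisphere (SE, adjusted p = 0.0423) and by 0.48 ± 0.11 in the vermis (adjusted p = 0.00798). The hemisphere call held in 4 of 12 fits that left out 1 array. Itgb8, which with alphav activates latent TGF-beta, averaged 8.54 ± 0.11 in SmoM2 and 8.08 ± 0.21 in wild type vermis (SD, n = 3 each; log2 difference 0.46, adjusted p = 0.0477). In the hemisphere it averaged 8.49 ± 0.22 in SmoM2 and 8.09 ± 0.24 in wild type (adjusted p = 0.0835). Its vermis call held in 4 of 12 fits that left out 1 array, and its adjusted p was 0.0507 with the pools as a random block.

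Itgb3, the chain of platelet and alphav receptors, fell in the vermis by 0.37 ± 0.11 on the log2 scale (SE, adjusted p = 0.0356), a call that held in 7 of 12 fits that left out 1 array. Its SmoM2 vermis mean, 3.59, lay below the lower quartile of kept probe sets, 3.77. Summed linear levels of 4 platelet markers were 113 to 119 in SmoM2 and 163 to 182 in wild type vermis, and 2 of these markers fell there, where 9.46% of all genes fell. In the hemisphere, where Itgb3 did not pass (limma adjusted p = 0.34), the sums were 97 to 129 in SmoM2 and 132 to 156 in wild type, and 0 of the 4 passed (1 fell without wild type hemisphere replicate 3). The part of platelets in the Itgb3 result was not tested. Itgb6, an epithelial chain, and Itgb2l passed in neither region.

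Leukocyte chains are used by immune cells rather than neurons. Itgb2, the shared beta chain of the leukocyte integrins, had log2 levels of 3.55, 3.82 and 3.22 in SmoM2 hemispheres, against 3.82, 4.25 and 4.22 in wild type hemispheres. In the vermis it had 3.57, 3.55 and 3.18 in SmoM2, against 4.07, 4.19 and 4.42 in wild type. The groups overlapped in the hemisphere and did not in the vermis. The lower quartile of kept probe sets was 3.77, and the SmoM2 means of Itgb2, 3.53 (hemisphere) and 3.43 (vermis), lay below it. The difference was -0.57 ± 0.17 (SE, adjusted p = 0.0377) in the hemisphere and -0.79 ± 0.17 (adjusted p = 0.00567) in the vermis. The hemisphere call was lost without wild type hemisphere replicate 2 or 3 (adjusted p = 0.128 and 0.111) or SmoM2 hemisphere replicate 1 or 3 (0.0919 and 0.158).

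Itgb7, the lymphocyte homing chain, fell by 0.48 ± 0.12 on the log2 scale in the vermis (SE, adjusted p = 0.0153). When wild type vermis replicate 3 or SmoM2 vermis replicate 1 was left out, the adjusted p values were 0.0502 and 0.0772. The leukocyte alpha chains Itgae, Itgal, Itgam and Itgax passed in neither region, and all 4 had means below the lower quartile of kept probe sets. Of 12 microglia and macrophage markers, 10 passed in the hemisphere and 9 passed in the vermis, all of them lower in SmoM2. Of all genes 7.18% and 9.46% were lower there. Their summed linear levels were 576 to 821 in SmoM2 and 1290 to 1523 in wild type hemispheres, and 664 to 941 in SmoM2 and 1305 to 1391 in wild type vermis, with none of the markers at 0. Without SmoM2 vermis replicate 3 the vermis count was 4, where 12.2% of all genes passed. Without wild type hemisphere replicate 3 the hemisphere count was 12, all lower, where 11.5% of all genes passed. Of 5 markers of other leukocytes, 1 was lower in SmoM2 hemispheres (7.18% of all genes were lower). In the vermis 0 of the 5 passed, where 17% of all genes did. Their median log2 differences were -0.0022 (hemisphere) and -0.039 (vermis). Without wild type hemisphere replicate 3, 0 of them passed in the hemisphere. The part of microglia and other leukocytes in the Itgb2 and Itgb7 results was not tested.

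Of the strongest changes, Lama5 and Itga8 had an annotated start whose upstream bases could be read. Both are shown because they rose in both regions and differ in base composition just before the start. The sequences are the bases upstream of the outermost annotated start, minus strand, from RefSeq on GRCm38.p6, at chr2:180225905-180226109 for Lama5 and chr2:12301986-12302194 for Itga8, and each overlaps 1 other annotated gene. Capitals mark the GC box GGGCGG, on either strand.
Lama5: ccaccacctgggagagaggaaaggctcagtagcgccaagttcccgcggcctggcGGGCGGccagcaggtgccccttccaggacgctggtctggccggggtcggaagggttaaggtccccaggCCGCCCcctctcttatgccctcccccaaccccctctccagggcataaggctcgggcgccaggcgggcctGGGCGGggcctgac
Itga8: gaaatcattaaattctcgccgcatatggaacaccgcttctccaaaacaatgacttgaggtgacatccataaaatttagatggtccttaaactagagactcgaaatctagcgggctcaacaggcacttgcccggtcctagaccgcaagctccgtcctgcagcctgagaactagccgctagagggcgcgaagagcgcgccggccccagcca
The 205 bases of Lama5 held 3 GC boxes and were 71.7% G or C, and the 209 bases of Itga8 held 0 and were 53.1% G or C. Promoter windows of 300 bases were at hand for 23 of the 35 genes (26 windows). The GC box occurred in 12 of the 26 (46.2%), against 35.7% of all 32851 windows, and the Gli binding sequence GACCACCCA, searched on both strands, in 0 of the 26, against 0.253% of all windows. A match is only a description of the letters in these windows.

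Other probe sets of a gene give a second reading within the same arrays. For Itga9 a second probe set gave log2 differences of 1.74 in the hemisphere and 1.87 in the vermis (adjusted p = 8.8e-06 and 4.47e-06 over 34958 probe sets), and the third gave 0.07 and 0.24 and did not pass. For Lama5 a second gave 1.69 and 1.14 (adjusted p = 4.13e-05 and 0.00114), and the third gave 0.41 and 0.03, of which the first passed (adjusted p = 0.028). The size of the rise of both genes depended on which probes were read. The second Itga8 probe set passed in the hemisphere at 0.65 (adjusted p = 0.0454), while its vermis difference was 0.48 (adjusted p = 0.123). The other 3 Itgb5 probe sets gave -0.46 to -0.22 in the hemisphere and none passed. The second probe sets of Itgb3 and Lama4 read 0.05 and 0.10 in the vermis and did not share the fall, and neither gene passed there when its probe sets were averaged (adjusted p = 0.254 and 0.308). Lama1, Lama2, Itga7, Itgb2, Itgb4, Itgb7, Itgb8 and Lamb2 had a single probe set each, so that their calls have no second reading. The second Lamc1 probe set gave 0.23 in the hemisphere and did not pass (adjusted p = 0.161).

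**Figure D3:**
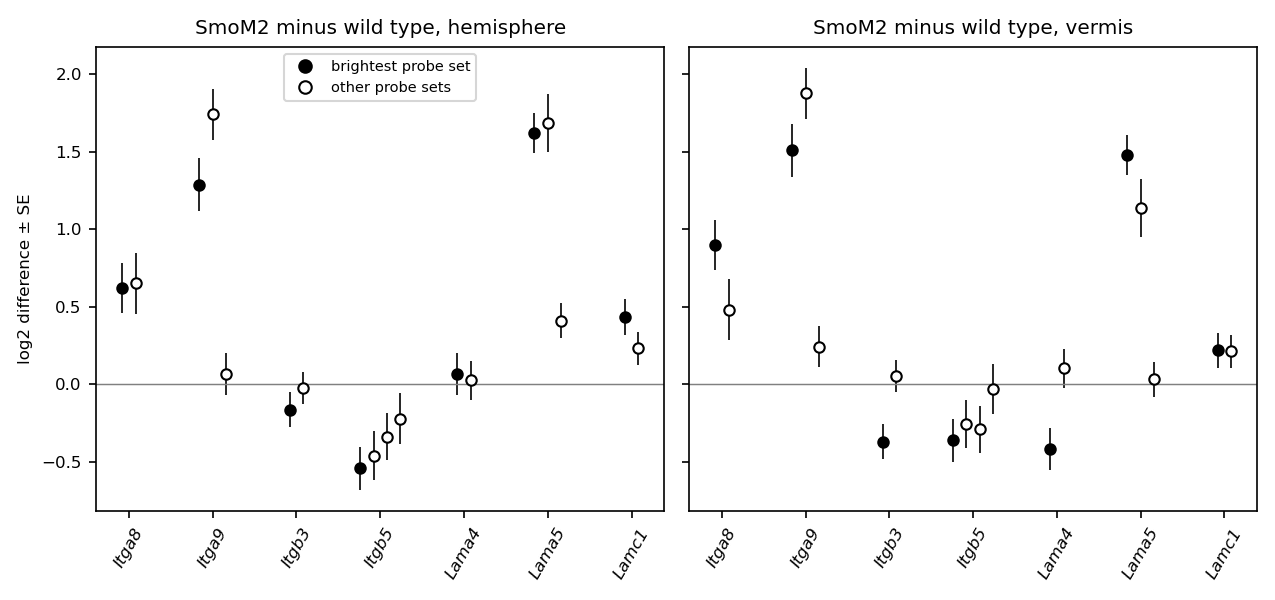
Log2 difference of SmoM2 minus wild type with its standard error (y axis) for every probe set of the genes that passed and have more than 1, hemisphere left and vermis right; filled points are the brightest probe set and open points the others. Itga9 and Lama5 each have 1 further probe set with a difference above 1 in both regions. The remaining probe set reads 0.07 (hemisphere) and 0.24 (vermis) for Itga9, and 0.41 and 0.03 for Lama5.

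None of the 35 genes passed between regions. Hemisphere minus vermis, 0 of 35 passed in SmoM2 (0.0605% of all genes) and 0 of 35 in wild type (0.187%). At an unadjusted p under 0.05 the counts were 4 of 35 in SmoM2 (3.63% of all genes) and 3 of 35 in wild type (6.32%). The smallest p in SmoM2 was that of Itga4, with log2 levels of 5.90, 6.35 and 6.10 in SmoM2 hemispheres, against 5.69, 5.81 and 5.72 in SmoM2 vermis (difference 0.38 ± 0.13, SE, adjusted p = 1). In wild type the same Itga4 probe set read 5.97, 5.97 and 6.30 in the hemisphere, against 5.55, 5.81 and 5.82 in the vermis. All wild type hemisphere arrays were thus higher as well (difference 0.36 ± 0.13, SE, limma adjusted p = 0.599). The next brightest Itga4 probe set did not share the wild type difference, averaging 5.23 in wild type hemispheres and 5.24 in wild type vermis. In SmoM2 it averaged 5.70 in the hemisphere and 5.18 in the vermis.

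In wild type the smallest p was that of Itga8, higher in the hemisphere than in the vermis by a log2 difference of 0.66 ± 0.16 (SE, limma adjusted p = 0.164). Same-numbered hemisphere and vermis pools deviated together within a genotype. With the pools as a random block the Itga8 difference passed (SE 0.12, adjusted p = 0.0216), where 1.09% of all genes passed. It passed in only 1 of the 19 alternatives, which gave differences of 0.34 to 0.76. With the replicate block its limma adjusted p was 0.137. The second Itga8 probe set did not share the difference, averaging 3.326 in wild type hemispheres and 3.305 in wild type vermis. Both means lay below the lower quartile of kept probe sets, 3.77. In SmoM2 the Itga8 difference between regions was 0.39 ± 0.16 (adjusted p = 1).

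**Figure D4:**
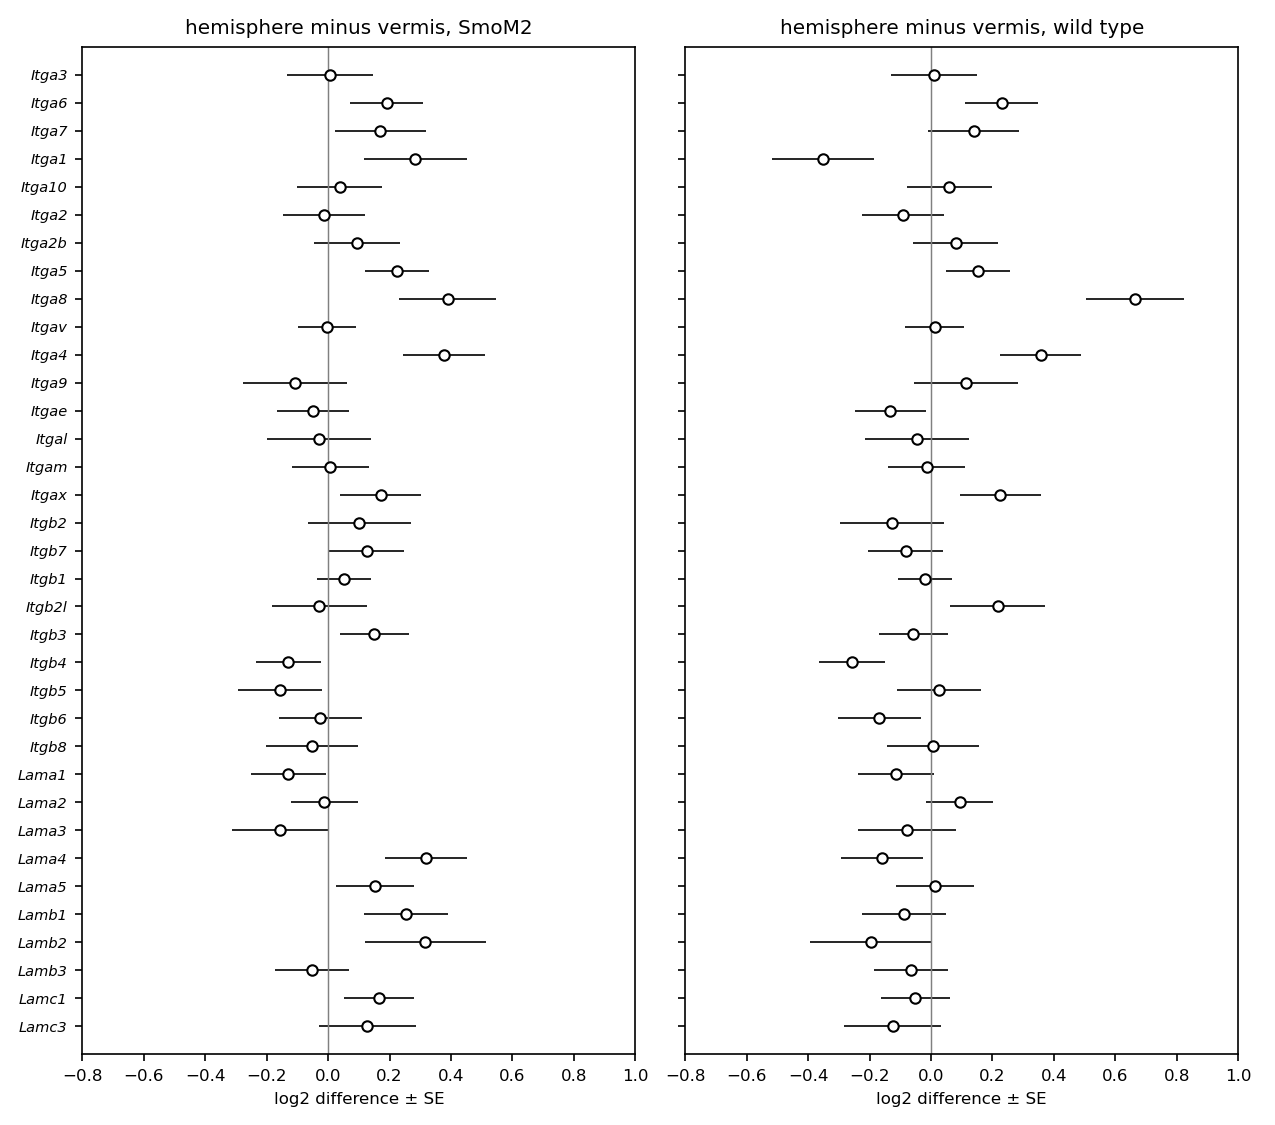
Log2 difference of hemisphere minus vermis with its standard error (x axis) for each of the 35 genes (rows), in SmoM2 on the left and wild type on the right; no gene passed an adjusted p of 0.05. Itga8 lies farthest to the right in both panels, at 0.39 in SmoM2 and 0.66 in wild type.

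The size of the SmoM2 effect was compared between regions by an interaction, the difference in the hemisphere minus that in the vermis. Of the 35 genes 0 passed (0% of all genes), and 2 had an unadjusted p under 0.05 (3.1% of all genes). They were Itga1, with an interaction of 0.64 ± 0.24 on the log2 scale (SE, limma adjusted p = 1), and Lama4, with 0.48 ± 0.19 (adjusted p = 1). Itga1, a collagen receptor chain, had log2 levels of 4.98, 5.04 and 4.91 in SmoM2 hemispheres, against 4.37, 4.79 and 4.78 in wild type hemispheres. In the vermis it had 4.52, 4.93 and 4.63 in SmoM2, against 5.11, 5.27 and 4.61 in wild type. The groups were apart in the hemisphere and overlapped in the vermis. No gene that passed in 1 region alone was shown to respond differently in the other.

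Of 16 measured partners of the laminins in the basement membrane, 3 were higher and 2 lower in SmoM2 hemispheres (31.2%, against 14.8% of all genes), and 1 higher and 0 lower in SmoM2 vermis (6.25%, against 17%), with median log2 differences of 0.13 and -0.035. Fbln1, a fibulin that binds laminin, rose in both, averaging 7.5 in SmoM2 and 6.78 in wild type hemispheres and 7.43 in SmoM2 and 6.5 in wild type vermis (log2 differences 0.71 and 0.93, adjusted p = 0.00363 and 0.000411). Col4a1, a chain of the collagen IV network, averaged 9.85 in SmoM2 and 8.97 in wild type hemispheres (0.88 ± 0.24, SE, adjusted p = 0.0234), and its vermis difference was 0.19 ± 0.24. Ntn4, a netrin that disrupts laminin networks, averaged 8.37 in SmoM2 and 9.25 in wild type hemispheres (-0.87 ± 0.11, adjusted p = 0.000107), and Fras1, an extracellular matrix protein of embryonic basement membranes, fell in the hemisphere by 0.48 on the log2 scale (adjusted p = 0.0215). Without wild type hemisphere replicate 3 the hemisphere differences were 0.71 for Fbln1, 1.22 for Col4a1, -0.90 for Ntn4 and -0.59 for Fras1, all of which passed. Leaving out wild type hemisphere replicate 2 gave 2 hemisphere calls (9.9% of all genes passed) and replicate 3 gave 8 (11.5%). Leaving out SmoM2 hemisphere replicate 2 gave 3 (11.2%) and its replicate 3 gave 2 (9.37%). In the vermis 3 passed when wild type hemisphere replicate 1 was left out (21% of all genes). The vermis count was 2 without wild type hemisphere replicate 2 (17.6%) or 3 (19.9%). It was also 2 without wild type vermis replicate 1 (18.1%) or SmoM2 hemisphere replicate 2 (15.8%).

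Dystroglycan is the other main laminin receptor. Of 11 measured genes for it, its sugar-adding enzymes and other non-integrin laminin receptors, 0 passed in either region by limma (at an unadjusted p under 0.05, 0 in the hemisphere, where 30.9% of all genes had one, and 2 in the vermis, where 33% did), with median log2 differences of 0.091 and 0.048. Without wild type hemisphere replicate 1 the hemisphere count was 1 (23.5% of all genes passed), and without replicate 3 it was 0 (11.5%). Without SmoM2 vermis replicate 3 the vermis count was 1 (12.2%). Dag1, dystroglycan itself, averaged 9.33 in SmoM2 and 9.24 in wild type hemispheres, and 9.29 in SmoM2 and 9.27 in wild type vermis. The largest difference of the list was that of Bcam in the vermis, at -0.57 ± 0.25 (SE, limma adjusted p = 0.127), while its hemisphere difference was -0.05.

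Of 21 measured other ligands of integrins, 1 was higher and 3 lower in SmoM2 hemispheres (19%, against 14.8% of all genes), and 2 higher and 4 lower in SmoM2 vermis (28.6%, against 17%), with median log2 differences of -0.018 and -0.052. Tnr, tenascin-R of brain matrix, averaged 5.70 in SmoM2 and 6.96 in wild type hemispheres and 5.60 in SmoM2 and 7.51 in wild type vermis (log2 differences -1.27 and -1.92, adjusted p = 0.00229 and 6.84e-05). L1cam, an adhesion molecule of axons, fell (log2 differences -1.13 and -1.40, adjusted p = 0.000948 and 0.000142), and Vtn, vitronectin, also fell (-0.81 and -1.11, adjusted p = 0.00101 and 6.5e-05). Tgfb3, whose latent form alphav integrins can bind, rose by 0.50 and 0.55 (adjusted p = 0.0471 and 0.0297). Without wild type hemisphere replicate 3, 3 ligands were higher and 3 lower in the hemisphere, and the differences were -1.43 for Tnr, -1.05 for L1cam, -0.65 for Vtn and 0.65 for Tgfb3, which all passed.

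The list of adaptors and focal adhesion genes held proteins that link integrin tails to actin, and also other integrin regulators and tetraspanins. Of its 29 measured genes, 6 were higher and 6 lower in SmoM2 hemispheres (41.4%, against 14.8% of all genes), and 2 higher and 6 lower in SmoM2 vermis (27.6%, against 17%). The median log2 differences were -0.0099 and -0.055. Actn1, alpha-actinin, averaged 8.09 in SmoM2 and 6.88 in wild type hemispheres and 8.09 in SmoM2 and 6.69 in wild type vermis (log2 differences 1.21 and 1.40, adjusted p = 2.3e-05 and 6e-06). Parvb, a parvin of the integrin-linked kinase complex, rose by 1.03 and 0.73 (adjusted p = 0.00218 and 0.0179), and Lims2, a PINCH adaptor of the same complex, fell (-0.71 and -0.89, adjusted p = 0.000773 and 9.68e-05). Tspan2, a tetraspanin of myelinating cells, fell (-1.08 and -1.61, adjusted p = 0.00363 and 0.000142). Of 8 oligodendrocyte lineage markers 6 fell and 0 rose in each region, where 7.18% (hemisphere) and 9.46% (vermis) of all genes fell. Their summed linear levels were 2837 to 4147 in SmoM2 and 7067 to 8520 in wild type hemispheres, and 2861 to 4475 in SmoM2 and 8593 to 12296 in wild type vermis. The part of oligodendrocyte lineage cells in the Tspan2 and Tnr results was not tested. Without wild type hemisphere replicate 3, 6 genes of the adaptor list were higher and 5 lower in the hemisphere, where Actn1 differed by 1.23, Parvb by 1.20, Lims2 by -0.64 and Tspan2 by -1.11, all of which passed. Leaving out SmoM2 hemisphere replicate 3 gave 6 genes of this list in the hemisphere (9.37% of all genes passed). Leaving out SmoM2 vermis replicate 2 or 3 gave 5 in the vermis (9.65% and 12.2%).

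**Figure D5:**
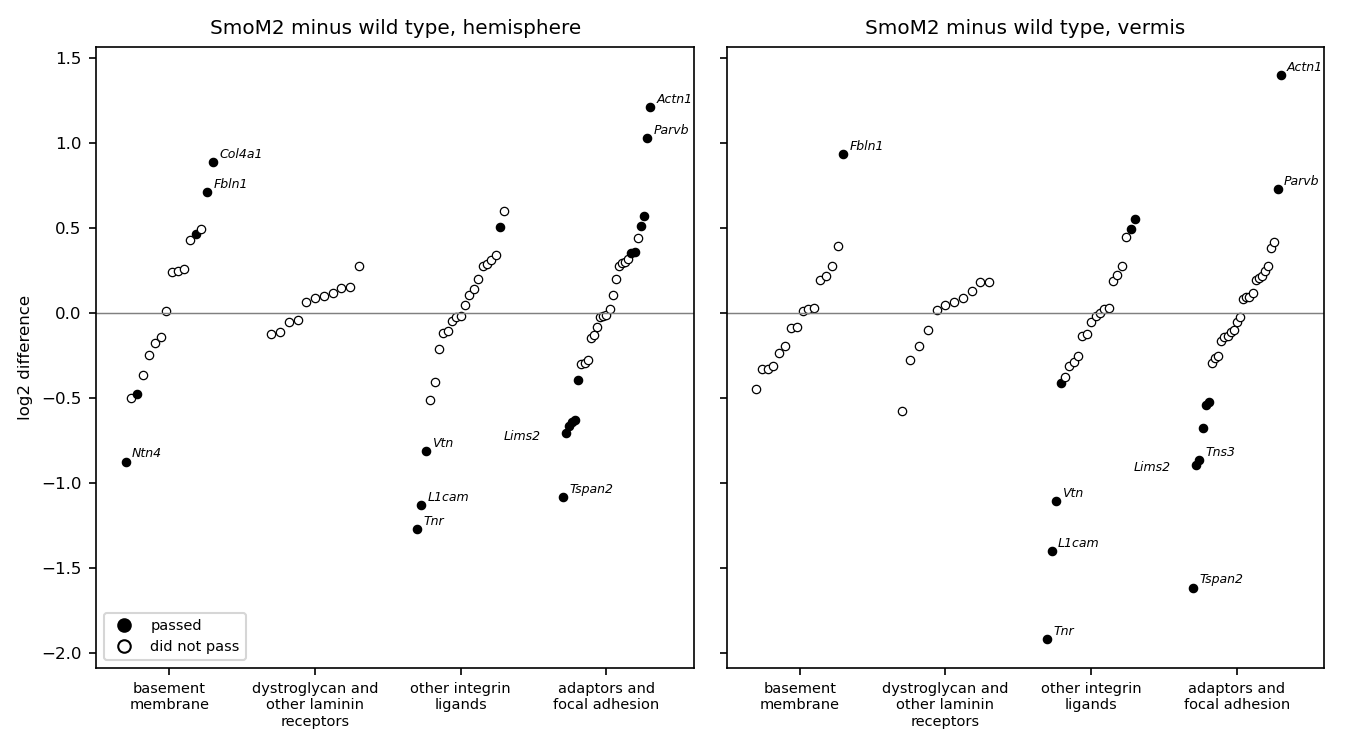
Log2 difference of SmoM2 minus wild type (y axis) for the measured genes of 4 lists (x axis, sorted by difference within a list), hemisphere left and vermis right; filled points passed an adjusted p of 0.05, and those with a difference above 0.7 either way carry their symbol. No gene of the dystroglycan list passed, with differences of -0.12 to 0.28 in the hemisphere and -0.57 to 0.18 in the vermis. Actn1 lies at the top and Tnr or Tspan2 at the bottom.

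Markers of other cells and of granule cells were read beside these results. In each list below some passed higher and some lower, where 14.8% of all genes passed in the hemisphere and 17% in the vermis. Of 9 markers of meningeal fibroblasts, the pial cells that also make laminin, 2 were higher and 4 lower in SmoM2 hemispheres. In SmoM2 vermis 1 was higher and 3 lower. Without wild type hemisphere replicate 3, 2 were higher and 3 lower in the hemisphere. Their summed linear levels were 4150 to 5092 in SmoM2 and 4059 to 5292 in wild type hemispheres. In the vermis the sums were 4265 to 4984 in SmoM2 and 4793 to 5521 in wild type. Of 9 astroglial markers 2 rose and 2 fell in each region, with summed levels of 7540 to 10604 in SmoM2 and 10995 to 13726 in wild type hemispheres and of 8577 to 11517 in SmoM2 and 10710 to 13242 in wild type vermis. Of the 8 granule cell markers 1 was higher and 4 lower in SmoM2 hemispheres, and 1 higher and 3 lower in SmoM2 vermis. Leaving out wild type hemisphere replicate 3 gave 2 markers higher and 3 lower in the hemisphere. They summed to 14972 to 16073 in SmoM2 and 19921 to 23063 in wild type hemispheres. In the vermis they summed to 15731 to 16397 in SmoM2 and 20660 to 23345 in wild type. Zic1 and Neurod1 were the brightest of the 8 and weigh most in these sums, while Atoh1 was higher in SmoM2 in both regions. The number of progenitors was not measured. The part of these cells in the laminin results was not tested.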

How the data were processed

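RNA of 12 pools was labelled with biotin by the 3' IVT kit and read on Affymetrix mouse arrays, per the labels' protocols. The authors deposited log2 expression levels per probe set, made with Partek and RMA, per the submitters' processing notes (versions not given in the sources used here). The method gives no detection call, so low levels have no known distance from background. No value was normalized again for the reported results.

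Of 45101 probe sets, 34958 had 1 gene symbol in the platform annotation, 932 had several and 9211 had none. For each of 18194 genes the brightest probe set on average was used, and the lower quartile, median and upper quartile of their means were 3.77, 5.93 and 7.92. Of the 35 integrin and laminin genes, 8 had means below the lower quartile.

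Arrays were grouped by title. All tests were two-sided, by limma 3.58.1 (lmFit, eBayes; R 4.3.3), in 1 fit with 4 group means and 8 residual degrees of freedom, for 5 contrasts, with Benjamini-Hochberg adjustment over 18194 genes and a threshold of 0.05. The number of arrays limits the precision: the median SD within a group was 0.13 on the log2 scale. The fit was tested on simulated data. Summed marker levels are sums of 2 to the power of the log2 values.

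The rule for names gave values on every array to members that passed in a SmoM2 minus wild type contrast with a log2 difference of at least 0.5 or passed between regions, and named the smallest p where none passed. From each partner list it named up to 4 genes that passed, by the size of the difference. Lists and members were chosen with earlier results of these data known.

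As a check of pairing, deviations from group means were correlated. Same-numbered hemisphere and vermis arrays had r of 0.34 to 0.53 in wild type and 0.14 to 0.27 in SmoM2, other-numbered arrays -0.40 to -0.11 and -0.17 to 0.02, so the numbers were taken to pair pools within a genotype. Across genotypes same-numbered arrays had r of -0.22 to 0.28, so they were not taken as paired. The 19 alternatives were another quantile normalization, median centring, a filter on low genes, the mean of all probe sets, trended and robust moderation, a replicate block, a random pool block and leaving out each of 12 arrays; testing every probe set on its own was added after seeing the data.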

Additional observations from a re-analysis of the deposited data

How the results depend on the processing

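Of the 11 hemisphere calls, 4 (Itga7, Itga9, Lama1, Lama5) held under all 19 alternatives, and of the 12 vermis calls 8 did (these and Itga8, Itgb2, Itgb4, Lama2). No call of a kept probe set changed direction. Leaving out 1 array gave 4 to 15 hemisphere calls and 8 to 14 vermis calls among the 35 genes, and 0 between regions or for the interaction. In these fits 8.98% to 23.5% of all genes passed in the hemisphere and 9.65% to 21% in the vermis. A further quantile normalization gave 7 hemisphere calls (4 higher, 3 lower), of which 2 were laminins, where 14.4% of all genes passed. It lost Lama2, Lamb2, Lamc1, Itgb2 and Itgb4 in the hemisphere and Itgb3 and Itgb8 in the vermis. The causes were not tested. Median centring gave 8 higher and 3 lower hemisphere calls (14.1% of all genes passed), and 6 higher and 4 lower vermis calls (15.6%).

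A replicate block over all 4 groups, which the pairing check did not bear out across genotypes, gave 13 hemisphere calls (7 higher, 6 lower) and 12 vermis calls (5 higher, 7 lower). Of all genes 17.9% and 20.6% passed then. It added Itga3 (adjusted p = 0.0216 and 0.0212) and, in the hemisphere, Itgax (0.0475), and lost Itgb8 in the vermis (0.0539). The random pool block gave 10 and 10 calls between genotypes (15% and 17.1% of all genes passed) and 1 call between wild type regions, Itga8 (1.09%).

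With every probe set tested on its own, a choice made after seeing the data, the vermis differences of Itgb3 and Lama4 were 0.053 and 0.10 at their second probe sets, the reverse sign of the kept ones, and 3 kept probe sets no longer passed: Lama4 and Itgb8 in the vermis (adjusted p = 0.0574 and 0.0581) and Itgb4 in the hemisphere (0.0501). Signal limits the 8 genes with means below the lower quartile, of which none passed in either region. It also limits Itgb2 and Itgb3, which passed with means of 3.82 and 3.80, just above the lower quartile of 3.77. In the basement membrane list the vermis count of 1 became 3 with the mean of all probe sets and 2 under quantile normalization, the low-signal filter, the trended and robust moderation and the replicate block.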
